A study of Bos taurus with 81 samples.

Results

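This account describes 1 kb stretches of the cattle genome that carried H3K27ac in 8-cell embryos, but in none of the oocyte, 4-cell or amanitin-treated 8-cell lists. Autosomes 1 to 29 were divided into 2488055 bins of 1 kb. A bin was called marked in a peak list where at least 50% of it was covered. The members were selected on measured values: they are the bins marked in both 8-cell H3K27ac lists and in none of the 6 H3K27ac lists of oocytes, 4-cell embryos and amanitin-treated 8-cell embryos. The rule found 20398 members, or 0.820% of all autosomal bins. They made up 32.0% of the 63768 bins marked in both 8-cell lists, and 68.8% of the 29666 bins that were in addition unmarked in oocytes and 4-cell embryos. Of the other gains, 4423 were marked in both amanitin lists and are called amanitin-resistant below, and 4845 were marked in 1 of the 2 amanitin lists. The lists record where peaks were called, so a member is a site without a called peak under amanitin, which does not show that the site needs transcription.

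H3K27ac is an acetyl group on lysine 27 of histone H3 that is found at active promoters and enhancers. H3K4me3 is a methylation of lysine 4 found mainly at promoters, while H3K27me3, written by Polycomb complexes, and H3K9me3, typical of heterochromatin, are associated with silent chromatin. α-Amanitin inhibits RNA polymerase II, and in cattle the main activation of the embryonic genome takes place around the 8-cell stage.

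The study profiled these 4 marks by CUT&Tag, where a transposase guided by an antibody cuts at the marked nucleosomes, and open chromatin by ATAC-seq. The groups were germinal vesicle oocytes (GV) collected before maturation in vitro, 2-cell (2C), 4-cell (4C) and 8-cell (8C) embryos at 32, 44 and 56 h after insemination, 8-cell embryos of the same age cultured with 50 µg/ml α-amanitin (8A), morulae (MO) at 122 h, and blastocysts (BL) at 172 h. Inner cell mass (ICM, the source of the embryo proper) was isolated by immunosurgery, and trophectoderm (TE, the outer layer that forms placenta) by cutting with a micro scalpel. All embryos were produced in vitro from slaughterhouse oocytes and frozen semen, the zona pellucida was removed with pronase, and each library pooled about 500 oocytes or 1000 to 1500 blastomeres. There were 2 libraries for every mark in every group, and 3 ATAC-seq libraries each of BL, ICM and TE.

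The 18 H3K27ac lists covered 43.4 to 142 Mb of the autosomes. The 8C lists marked 3.88% and 3.84% of all bins and the 8A lists 3.85% and 4.13%, so the amanitin lists were not shorter. The 4C lists were the shortest H3K27ac lists, with 1.26% and 1.36% of bins, and shared 29.5% of the bins marked in either; the 8C pair shared 49.7%, the 8A pair 49.9% and the morula pair 61.5%. Read depth is not recorded in the lists, so a bin without a peak can be a site with too few reads. Nothing in the labels says whether the libraries of a group came from separate batches of embryos, so the p-values below measure the spread between libraries, which may be technical. In the tests against amanitin-resistant gains, that spread also includes differences between groups.

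In the values that selected them, members were covered over 77.9% and 76.6% of their length by the 2 8C lists. Mean coverage was 2.78% and 2.46% in GV, 3.46% and 2.87% in 4C, and 6.67% and 4.34% in 8A. At the threshold, 2940 members had exactly 50% coverage in the weaker 8C list, while 2988 bins with 45% were kept out for that reason alone. On the other side, 1785 members had a highest coverage of 45% among the GV, 4C and 8A lists, and 2129 bins were kept out by 50%. Some peak reached into 13.5% of members in a GV list, 19.3% in a 4C list and 27.5% in an 8A list, and 12155 members, or 59.6%, had no covered base in any of these lists. The 8C peaks that hold members had a median width of 1050 and 1000 bp and a median score of 67 and 64 in the 2 lists. The 8C peaks of amanitin-resistant gains were wider, at 1300 and 1250 bp, with scores of 89 and 86.

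Members lay scattered through the genome, mostly as single bins. They formed 15842 runs of adjacent bins, of which 80.4% were 1 bin long, 905 had at least 3 bins, and the longest had 12. Runs of 1 bin held 62.4% of members. Such runs made up 90.6% of the runs of amanitin-resistant gains and 64.3% of those of bins marked in both 8C lists. Among 1 Mb windows the median held 6 members and 195 of 2502 windows held none. The richest window, chr23:31000001-32000000, held 60 members among 261 bins marked in both 8C lists, and the next, chr4:26000001-27000000, held 49 among 77 (coordinates on ARS-UCD1.2). Density per chromosome ran from 6.00 per 1000 bins on chromosome 24 to 11.1 on chromosome 18, with a median of 8.06. The first 2 Mb of the autosomes held 1.63% of members and 0.859% of amanitin-resistant gains, and the last 2 Mb held 1.39% and 4.27%, where each end holds 2.33% of all bins. Within the acetylated landscape, 28.8% of runs lay next to a bin marked in an 8A list. For a bin marked in any GV, 4C or 8A list, 36.9% of runs lay next to one and 59.1% within 5 bins. The median distance was 3 bins, and 20.4% of runs lay over 20 bins from the nearest. These shares were not counted for other sets of bins, so they cannot be called particular to members.

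**Figure D1:**
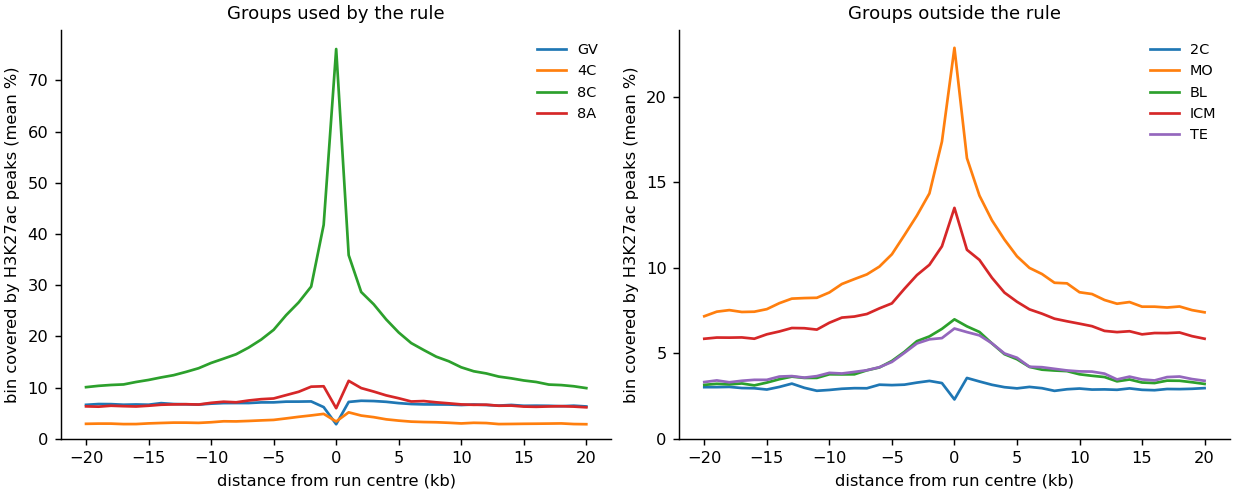
Mean percent of each 1 kb bin covered by H3K27ac peaks (vertical axis) against the distance from the centre of a run of members (horizontal axis, kb), over 15841 runs and averaged over the 2 libraries of each group. The left panel shows groups that selected the members, where 8C stands at 76.1% in the centre and 9.89% at 20 kb; the right panel shows groups outside the rule, where MO has a centre of 22.9% against 7.39% at 20 kb.

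H3K27ac in the groups outside the rule showed what came before and after. At 2C, when little of the embryonic genome is transcribed, 1.73% and 2.36% of members were marked, against 2.34% and 2.91% of all bins. In morulae 24.8% and 27.1% of members were marked, against 4.54% and 4.74% of all bins. In blastocysts the shares were 6.88% and 7.63%, in ICM 15.4% and 14.6%, and in TE 6.51% and 6.71%. All bins stood at 1.91% and 2.15% in BL, 4.11% and 3.83% in ICM, and 2.28% and 2.40% in TE. The mean ratio of members to all bins was 5.58 in MO, 3.78 in ICM, 3.57 in BL and 2.82 in TE. Bins marked in both 8C lists, members included, had mean shares of 35.7% in MO, 18.8% in BL, 29.5% in ICM and 18.6% in TE. Members thus lay above all autosomal bins but below the 8C bins as a whole in these 4 groups. By share of members, the 2 morula libraries stood above all others, the ICM libraries came next, and BL and TE were close to each other. The means were 2.04% ± 0.447 in 2C, 25.9% ± 1.63 in MO, 7.25% ± 0.530 in BL, 15.01% ± 0.541 in ICM and 6.61% ± 0.142 in TE (SD, n = 2 each). An exact permutation test over the 10 libraries found that H3K27ac on members differed between these 5 groups (p = 0.00106, adjusted p = 0.00265 over the 5 assays), and 0.00106 is the smallest p the design allows. For a single pair of groups, an exact two-sided permutation test of 2 libraries against 2 cannot go below p = 0.333, so pairs were not tested one by one.

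The share in TE depended on how the lists were cut. Trimming also redefines the members by the same rule, here and wherever trimmed lists are given below, so a different set of bins is read. With the H3K27ac lists trimmed by score to equal length, 10.2% ± 0.209 of members were marked in TE, 14.4% ± 0.0570 in ICM and 19.7% ± 0.596 in MO (SD, n = 2), so the order MO, ICM, TE was the same and TE moved by more than 1.5 times.

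**Figure D2:**
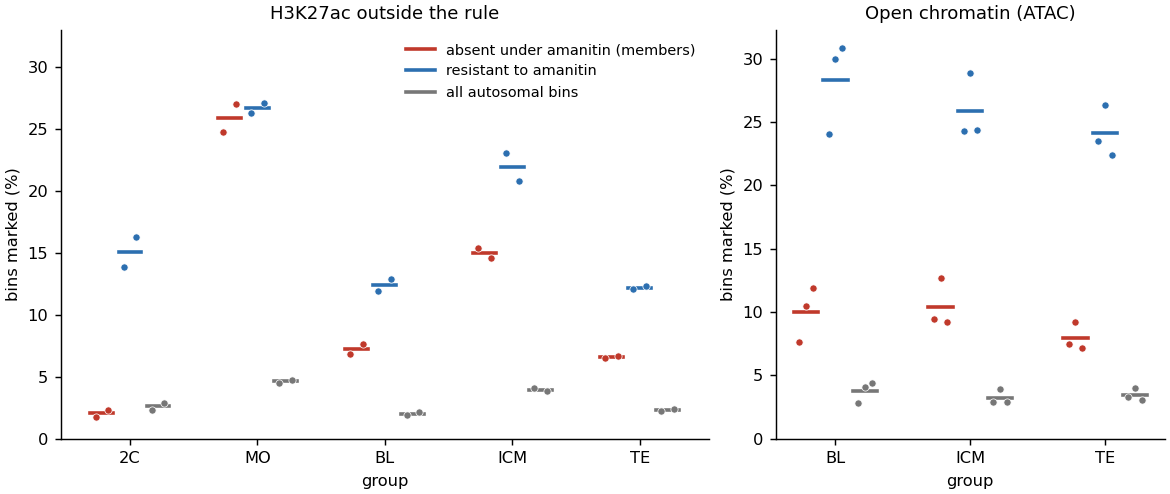
Percent of bins marked (vertical axis) per library (points) and group mean (bars) for members, amanitin-resistant gains and all autosomal bins. H3K27ac is on the left, with members at 24.8% and 27.1% in MO and 6.51% and 6.71% in TE, and ATAC-seq is on the right, with members between 7.19% and 12.7%.

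Counted bin by bin, 4380 members (21.5%) were marked by H3K27ac in both morula lists, where 3.54% of all autosomal bins were. Both ICM lists marked 2569 members (12.6%, background 3.21%), and both TE lists marked 1096 (5.37%, background 1.89%). H3K27ac was kept in morula, ICM and TE together at 778 members (3.81%, background 0.979%). A further 1774 members (8.70%) were marked in both morula lists and in no BL, ICM or TE list, where the background was 1.09%. The largest class had no later call: 13456 members, or 66.0%, were marked in no morula, blastocyst, ICM or TE list. That class held 91.9% of all bins, 63.4% of amanitin-resistant gains and 54.0% of bins marked in both 8C lists. It is thus not particular to members, and a missing call does not show that the mark was lost. Acetylation of a lineage after an unmarked morula was found at 311 members (1.52%, background 0.821%) for ICM and at 107 (0.525%, background 0.531%) for TE, counting both lists of the lineage and no MO list. Both 2C lists marked 92 members (0.451%), against 1.2% of all bins.

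The first lineages were compared by members acetylated in only one of them. In both ICM lists and no TE list 1382 members were marked (6.78%, background 1.53%), and in both TE lists and no ICM list 151 (0.740%, background 0.447%). The same 2 classes held 7.66% and 0.927% of amanitin-resistant gains. Of bins marked in both 8C lists they held 8.40% and 0.836%, so the larger ICM-alone class is not particular to members. The 1382 ICM-alone members were already marked in the morula at 74.5% and 77.8%, and the 151 TE-alone members at 52.3% and 58.3%. ATAC-seq, an independent assay, marked 40.4% to 50.7% of the ICM-alone members in the 3 ICM libraries and 16.9% to 21.9% in the 3 TE libraries. The TE-alone members showed the reverse, with 12.6% to 22.5% in ICM and 52.3% to 64.2% in TE. Over all autosomal bins of the same 2 classes, ATAC-seq marked 39.1% to 49.2% of 37983 ICM-alone bins in ICM and 21.7% to 27.9% in TE, and 7.91% to 12.7% of 11119 TE-alone bins in ICM and 50.1% to 58.4% in TE. The morula shares over all bins were 52.9% and 55.0% for the ICM-alone class and 23.4% and 26.8% for the TE-alone class. No difference between these classes was tested, because they were chosen on H3K27ac of the same 2 lineages. H3K4me3 on the TE-alone members was 23.8% and 26.5% in TE and 5.96% and 6.62% in ICM, and H3K27me3 was 0.662% in both TE libraries and 8.61% and 10.6% in ICM. Over all TE-alone bins H3K4me3 was 16.4% and 18.7% in TE and 2.42% and 2.81% in ICM, and H3K27me3 was 1.23% and 1.39% in TE and 9.94% and 9.96% in ICM.

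Open chromatin was measured on members in blastocysts and their lineages. ATAC-seq marked 7.61%, 10.5% and 11.9% of members in BL, 9.44%, 12.7% and 9.21% in ICM, and 7.47%, 9.19% and 7.19% in TE. The ranges overlapped between the 3 groups, and the exact permutation test found no difference past the threshold (p = 0.264). Relative to all bins the ICM stood highest, at 3.22-fold ± 0.0292, against 2.65-fold ± 0.0520 in BL and 2.30-fold ± 0.0394 in TE (SD, n = 3). On that scale the groups differed (adjusted p = 0.00357, the smallest the design allows, exact permutation test). Bins marked in both 8C H3K27ac lists, members included, had higher mean ATAC-seq shares than members, at 31.1% in BL, 29.3% in ICM and 27.6% in TE. All 3 ICM lists marked 1446 members (7.09%, background 2.21%) and all 3 TE lists 1064 (5.22%, background 2.31%). In all ICM and no TE lists there were 420 members (2.06%, background 0.334%), and in all TE and no ICM lists 142 (0.696%, background 0.42%). The same 2 classes held 1.67% and 1.11% of amanitin-resistant gains, and 1.72% and 0.991% of bins marked in both 8C H3K27ac lists. No ATAC-seq list of BL, ICM or TE marked 16423 members (80.5%), where the background was 92.9%.

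A joint test over H3K27ac, H3K4me3 and ATAC-seq compared ICM with TE as the sum of the log2 ratios of the shares of members marked. The sum was 1.45, and its exact two-sided permutation p of 0.0556 did not pass the threshold of 0.05. It passed without TE replicate 2 of ATAC-seq (sum 1.56, adjusted p = 0.0444), without ICM replicate 1 of H3K4me3 (1.47, 0.0444) and without TE replicate 1 of H3K4me3 (1.46, 0.0472, all exact permutation tests). It also passed relative to all autosomal bins (sum 1.05, exact permutation p = 0.00833).

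H3K4me3, the promoter mark, covered few members before the 8-cell stage. In GV oocytes it marked 4.95% and 6.71% of members, in 2C 4.29% and 4.88%, and in 4C 3.81% and 4.38%. At each of these stages the share was close to that of all autosomal bins, which was 5.82% and 7.47% in GV, 4.76% and 4.72% in 2C, and 3.85% and 4.52% in 4C. In 8C embryos 6.83% and 10.4% of members were marked, against 2.76% and 4.72% of all bins. In 8A embryos the mark covered 2.24% and 1.61% of members, against 2.36% and 1.98% of all bins. The 8C libraries lay above both the 4C and the 8A libraries, and the means were 8.59% ± 2.49 in 8C and 1.92% ± 0.444 in 8A (SD, n = 2). Bins marked in both 8C H3K27ac lists, members included, had higher mean H3K4me3 shares, at 39.9% in 8C and 23.4% in 8A.

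From the morula on, H3K4me3 covered 8.07% and 9.20% of members in MO, 6.66% and 7.08% in BL, 5.60% and 5.79% in ICM, and 6.23% and 6.15% in TE. All bins stood between 1.56% and 2.02% in these 8 libraries. The ratio of members to all bins was 4.56 ± 0.0875 in MO and 2.34 ± 0.201 in 8C, after 0.979 ± 0.0138 in 4C (SD, n = 2). The share of members with H3K4me3 differed between the 8 groups without amanitin (exact permutation p = 0.0216, adjusted p = 0.0270), and so did the log2 ratio to all bins (adjusted p = 1.48e-05, exact permutation). The first of these calls rested on single libraries. It was lost without any one of H3K4me3 2C replicate 1, 4C replicate 1 or 2, MO replicate 1 or 2 and BL replicate 2, and without H3K27ac 8A replicate 2 or either H3K27ac 8C replicate, with adjusted p between 0.0526 and 0.118 (exact permutation). The 8 groups include GV, 4C and 8C, whose H3K27ac selected the members. Neither test is therefore independent of that selection where H3K4me3 goes with H3K27ac.

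**Figure D3:**
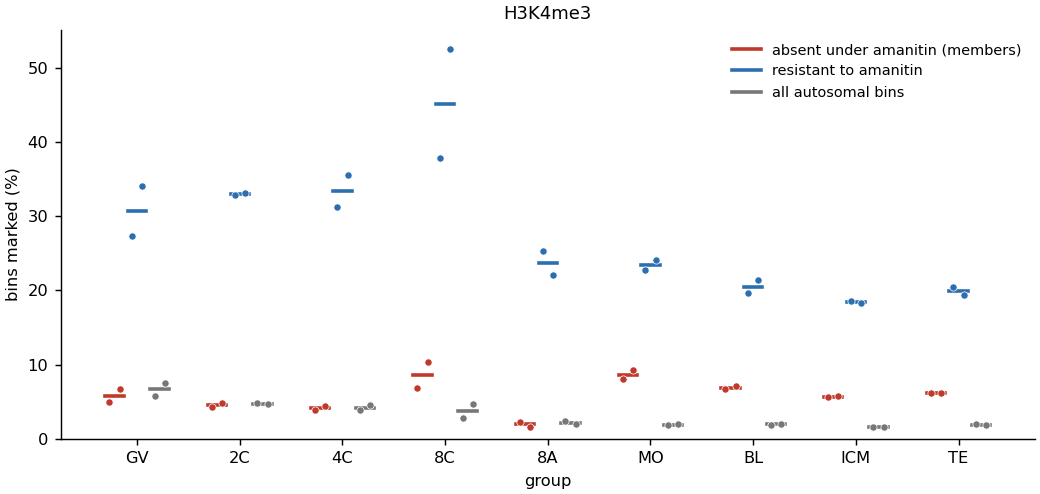
Percent of bins marked by H3K4me3 (vertical axis) per library (points) and group mean (bars) over the 9 groups, for members, amanitin-resistant gains and all autosomal bins. Members lie at 6.83% and 10.4% in 8C and at 2.24% and 1.61% in 8A, while resistant gains lie between 18.4% and 52.5% in every group.

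By bin, both 8C lists carried H3K4me3 at 1141 members (5.59%, background 2.54%), both 4C lists at 494 (2.42%, background 3.04%) and both 8A lists at 218 (1.07%, background 1.54%). The mark was in both 8C lists and no 8A list at 701 members (3.44%, background 0.627%), and in both 8A lists and no 8C list at 2 members (0.00980%, background 0.0295%). It was in both 8C lists and no 4C or 8A list at 469 members (2.30%, background 0.217%). GV and 2C lists of H3K4me3 do not enter that count. In both morula lists 1474 members had H3K4me3 (7.23%, background 1.65%), of which 657 also had it in both 8C lists (3.22%, background 1.11%) and 553 had it in no 8C list (2.71%, background 0.341%). The majority, 15723 members or 77.1%, had H3K4me3 in no list of any group, where the background was 88.4%.

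Later acetylation was counted separately for members with and without H3K4me3 at 8C. Among the 1141 members with H3K4me3 in both 8C lists, H3K27ac marked 47.9% and 48.5% in MO, 45.8% and 48.4% in ICM and 25.6% and 26.5% in TE, with ATAC-seq at 41.7% to 50.0% in ICM. Among the 18034 members with H3K4me3 in no 8C list, H3K27ac marked 22.7% and 25.4% in MO, 11.9% and 12.5% in ICM, and 4.89% and 5.02% in TE, with ATAC-seq at 6.62% to 9.60% in ICM. A gap between the classes was also present genome-wide. Of all 63228 bins with H3K4me3 in both 8C lists, H3K27ac marked 31.1% and 31.2% in MO, 34.0% and 36.5% in ICM and 23.2% and 24.4% in TE, and of the 2365351 bins with it in no 8C list, 3.61% and 3.83%, 2.82% and 3.01%, and 1.61% and 1.70%. The difference between classes was not tested. The H3K4me3 values also moved with the margin of the rule: among the 12155 members with no covered base in GV, 4C or 8A, H3K4me3 marked 4.11% ± 1.34 in 8C and 0.823% ± 0.175 in 8A (SD, n = 2), and with the lists trimmed to equal length it marked 10.8% ± 1.60 in 8C and 4.86% ± 0.177 in 8A.

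Among the repressive marks at the 4-cell stage, H3K27me3 covered 4.02% and 3.50% of members, against 6.30% and 5.76% of all bins. H3K9me3 covered 3.51% and 3.74%, against 6.56% and 7.12%. For both marks the members lay below the genome in both libraries, and the means over members were 3.76% ± 0.374 for H3K27me3 and 3.63% ± 0.163 for H3K9me3 (SD, n = 2). With the lists trimmed to equal length H3K9me3 at 4C marked 1.70% ± 0.0190 of members. For amanitin-resistant gains the 4 shares lay between 3.50% and 4.43%. By bin, H3K27me3 was in both 4C lists at 531 members (2.60%, background 4.56%) and H3K9me3 at 557 (2.73%, background 5.39%). The 2 marks mostly coincided, with 389 members in all 4 lists (1.91%, background 3.78%). In neither mark's 4C lists were 19173 members (94.0%), where the background was 90.3%.

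At the 8-cell stage H3K27me3 covered 1.87% and 2.11% of members, below both the 4C values and the 8A values of 3.43% and 3.67%. Over all bins it covered 5.50% and 5.61% in 8C and 5.82% and 6.14% in 8A. H3K9me3 covered 3.20% and 3.44% of members in 8C and 4.81% and 4.91% in 8A, against 6.76% and 6.73%, and 7.28% and 7.20%, of all bins. For H3K9me3 the 8C libraries lay just below the 4C libraries and clearly below those of 8A. By bin, H3K27me3 was in both 4C lists and no 8C list at 204 members (1.00%, background 0.614%), and H3K9me3 at 46 (0.226%, background 0.326%). H3K27me3 was in both 8A lists and no 8C list at 199 members (0.976%, background 0.65%), and in both 8C lists and no 8A list at 20 (0.0980%, background 0.404%). The same counts for H3K9me3 were 186 (0.912%, background 0.663%) and 24 (0.118%, background 0.376%).

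Joint tests asked whether these 3 marks, none of which the rule used, differed on members between 8C and its neighbours. The measure was the log2 ratio for H3K4me3 minus those for H3K27me3 and H3K9me3, so a higher H3K4me3 share or a lower repressive share at 8C adds to the sum, and a single mark can make it positive. The sum was 3.54 for 8C against 8A and 2.09 for 8C against 4C, each with an exact two-sided permutation p of 0.00926 (adjusted p = 0.0139), the smallest p the design allows. The 2 comparisons share the 8C libraries. H3K27ac of 8C, 8A and 4C selected the members, so the tests are not independent of that selection where a mark goes with H3K27ac. Amanitin-resistant gains had mean H3K4me3 shares of 33.5% in 4C, 23.6% in 8A and 45.2% in 8C. Their means in the same order were 3.97%, 3.72% and 3.19% for H3K27me3, and 3.88%, 5.62% and 4.30% for H3K9me3. Whether members differ from them in these changes was not tested. Relative to all autosomal bins the sums were 2.59 and 2.16, and with the lists trimmed to equal length 2.42 and 2.30 (adjusted p = 0.00926 for all 4, exact permutation).

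**Figure D4:**
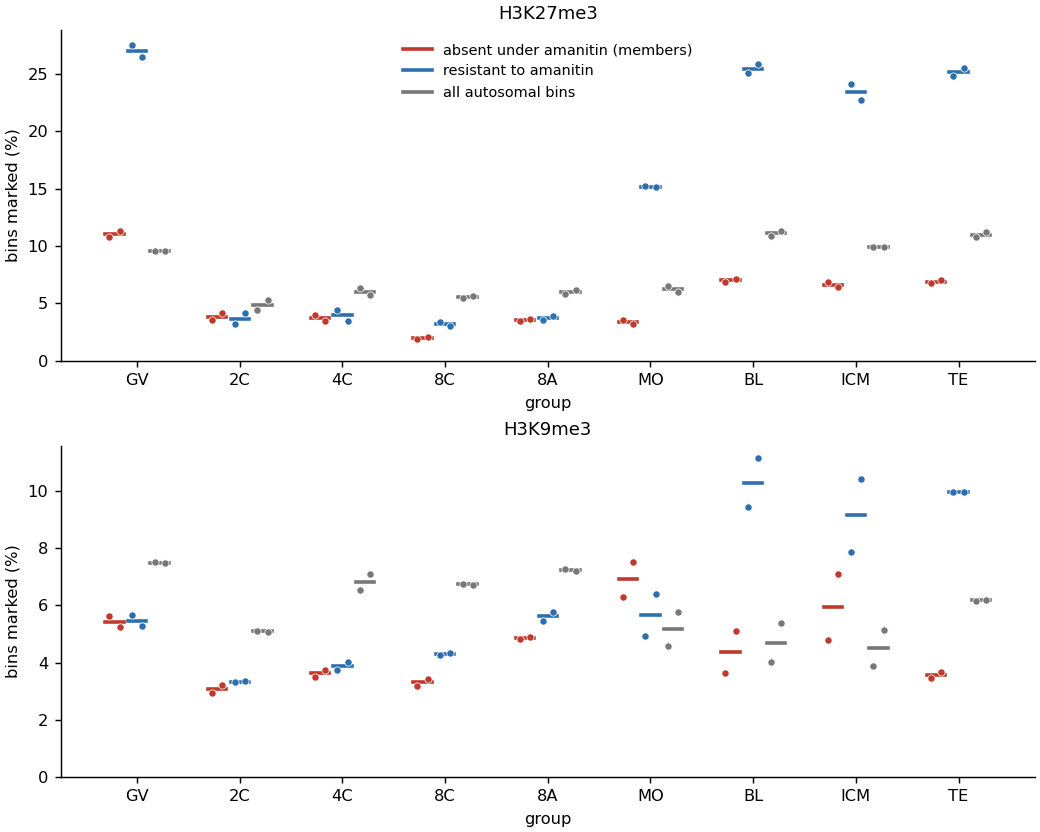
Percent of bins marked by H3K27me3 (top) and H3K9me3 (bottom) per library (points) and group mean (bars) over the 9 groups, for members, amanitin-resistant gains and all autosomal bins. Members lie at 1.87% and 2.11% for H3K27me3 in 8C and at 6.31% and 7.52% for H3K9me3 in MO.

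Over all stages H3K27me3 on members was highest in GV oocytes, at 10.8% and 11.3% against 9.55% of all bins in both libraries. It stood at 3.54% and 4.14% in 2C, 3.51% and 3.21% in MO, 6.90% and 7.14% in BL, 6.84% and 6.41% in ICM, and 6.76% and 7.04% in TE. All bins stood at 4.42% and 5.26% in 2C, 6.55% and 6.00% in MO, and 10.9% and 11.3% in BL. They stood at 9.88% and 9.89% in ICM, and 10.8% and 11.2% in TE. Members thus lay below all bins in both libraries of each of these groups. Both GV lists marked 1663 members (8.15%, background 7.28%). The stage difference passed the exact permutation test (p = 3.85e-05, adjusted p = 0.000192). H3K9me3 on members was 5.62% and 5.24% in GV, 2.95% and 3.22% in 2C, 6.31% and 7.52% in MO, 3.65% and 5.12% in BL, 4.78% and 7.11% in ICM, and 3.47% and 3.68% in TE. All bins stood at 7.54% and 7.47% in GV, 5.09% and 5.09% in 2C, and 4.58% and 5.76% in MO. They stood at 4.03% and 5.38% in BL, 3.88% and 5.13% in ICM, and 6.16% and 6.20% in TE. Members lay above all bins in MO and ICM, and below them in GV, 2C, BL and TE. Among the member shares, the morula and ICM libraries included the highest values, and the BL and ICM ranges overlapped. Its stage difference passed as well (exact permutation p = 0.0137, adjusted p = 0.0228), but not without H3K9me3 MO replicate 2 (adjusted p = 0.0504, exact permutation) or H3K27ac 8C replicate 2 (adjusted p = 0.0699, exact permutation). Both morula lists carried H3K9me3 at 1172 members (5.75%, background 3.99%). The stage tests of H3K27me3 and H3K9me3 include GV, 4C and 8C, whose H3K27ac selected the members. They are therefore not independent of that selection where a mark goes with or against H3K27ac.

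Later acetylation was also counted for the few members with repressive marks at 4C. Among the 531 with H3K27me3 in both 4C lists, H3K27ac marked 49.9% and 53.3% in MO, 36.3% and 40.9% in ICM, and 16.8% and 17.7% in TE. Among the 557 with H3K9me3 in both 4C lists the shares were 48.1% and 51.9% in MO, 36.4% and 40.4% in ICM, and 16.7% and 17.6% in TE. Among the 19173 with neither mark they were 23.2% and 25.8%, 13.6% and 14.2%, and 6.00% and 6.20%. The marked classes share 389 bins. Over all autosomal bins the marked classes also stood above the unmarked one: H3K27ac in MO marked 9.91% and 11.6% of the 113525 bins with H3K27me3 in both 4C lists, 9.66% and 11.3% of the 134037 with H3K9me3, and 3.99% and 4.33% of the 2247193 with neither. In ICM these shares were 10.2% and 11.6%, 10.0% and 11.3%, and 3.35% and 3.56%, and in TE 6.00% and 6.21%, 5.97% and 6.20%, and 2.00% and 2.11%. The difference between classes was not tested. The 531 bins with H3K27me3 at 4C kept it at 50.8% and 54.2% in 8C and at 76.5% and 79.5% in 8A, and carried it at 11.3% and 13.0% in MO. H3K9me3 covered 71.2% and 75.1% of the same bins in 8C and 13.2% and 16.4% in MO. No 8C list carried H3K27me3 at 204 of these 531 members, and at 15287 of all 113525 such bins. The other shares of the 531 in these marks are given without the share over all such bins, so they cannot be called particular to members. For members marked by H3K27me3 in both GV lists, H3K27ac covered 21.8% and 23.3% of those 1663 in MO, 7.94% and 9.02% in ICM, and 3.91% in both TE libraries, while H3K27me3 covered 33.9% and 34.5% of them in BL. Of all 181121 bins with H3K27me3 in both GV lists, H3K27ac covered 4.98% and 5.18% in MO and H3K27me3 58.3% and 59.3% in BL. The ICM and TE shares of the 1663 are given without that comparison.

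**Figure D5:**
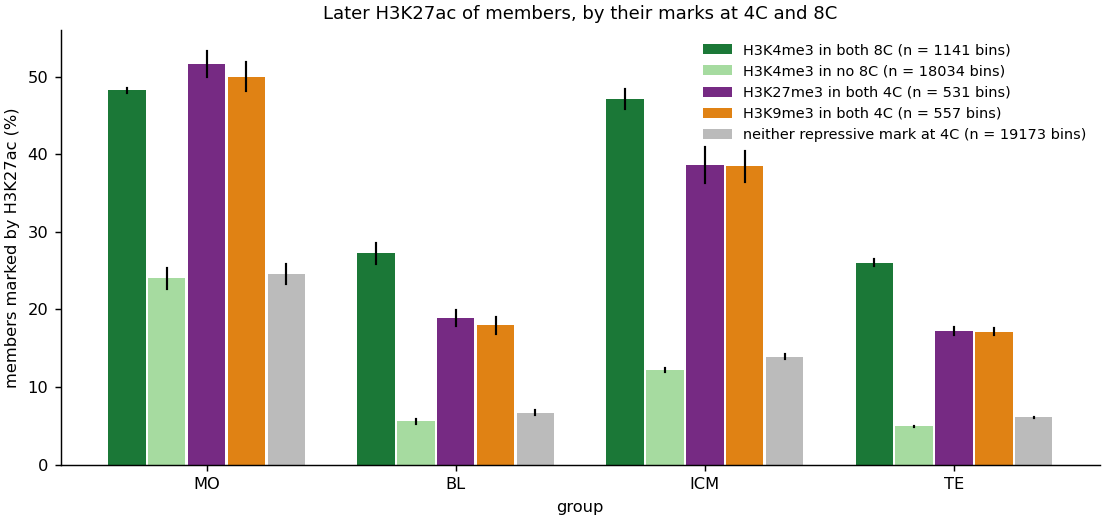
Percent of members marked by H3K27ac (vertical axis) in MO, BL, ICM and TE for members classed by H3K4me3 at 8C and by repressive marks at 4C. Bars are means and black lines span the 2 libraries; in MO the class with H3K27me3 in both 4C lists stands at 51.6% and the class with neither repressive mark at 24.5%.

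Compared within each library with the 4423 amanitin-resistant gains, members carried less of every assay on average. The sign-flip tests took libraries of different groups as repeats, although every library reads the same bins. The SD and p-values therefore include differences between groups and do not measure replication within a group. For H3K27me3 the difference ran from 0.352 in a 2C library to -18.7 in a BL library. Libraries of 8C and 8A also entered for the marks other than H3K27ac, and H3K27ac in 8A separated the sets. The mean difference was -21.8 percentage points ± 8.65 for H3K4me3, lower in 18 of 18 libraries (adjusted p = 3.81e-05, exact sign-flip permutation test). For ATAC-seq it was -16.6 ± 1.65, lower in 9 of 9 (adjusted p = 0.00488, exact permutation), and for H3K27me3 -9.17 ± 8.34, lower in 17 of 18 (adjusted p = 0.000286, exact permutation). For H3K27ac in 2C, MO, BL, ICM and TE it was -6.32 ± 4.20, lower in 10 of 10 (adjusted p = 0.00326, exact permutation). For H3K9me3 it was -1.84 ± 2.64, lower in 16 of 18 (adjusted p = 0.00693, exact permutation), and lower in 9 of 18 with the lists trimmed by score. The H3K27ac difference was smallest in the morula, where members stood at 24.8% and 27.1% and resistant gains at 26.3% and 27.2%. The H3K27me3 difference was concentrated in some groups: 10.8% and 11.3% of members against 27.5% and 26.5% of resistant gains in GV, and 6.90% and 7.14% against 25.1% and 25.8% in BL, but 4.02% and 3.50% against 4.43% and 3.50% in 4C. H3K4me3 at 8C marked 37.8% and 52.5% of resistant gains, and at 8A 25.3% and 22.0%.

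Single runs are given as examples at named places, with the percent of the run covered in replicates 1 and 2 on ARS-UCD1.2. They were picked as the 10 longest runs and the longest run of each class. The marks that define a class were therefore fixed at its run by that choice. Only 5.71% of all runs had at least 3 bins, so the runs described here are longer than most. The annotation at hand is of another build, so the runs are not assigned to genes. The longest run, chr2:69881001-69893000 (12 kb), was covered at 87.5% and 86.7% by H3K27ac in 8C. It had 0% and 0% in 8A, 4.58% and 4.17% in MO and none in BL, ICM or TE, and no H3K4me3 in 8C. In GV oocytes 85.0% and 80.0% of it lay under H3K27me3, and in 2C 38.3% and 18.3%, with none from 4C on. Of the 10 longest runs, those at chr3:100816001-100824000, chr4:26696001-26705000, chr9:83686001-83694000, chr10:31387001-31395000, chr10:59852001-59862000 and chr14:43582001-43592000 had at most 12.5% H3K27ac coverage in any MO, BL, ICM or TE library. The run chr9:83686001-83694000 (8 kb) had H3K9me3 over 95.0% and 92.5% in GV and none later.

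Other runs kept their acetylation. The run chr7:13584001-13589000 (5 kb), the longest marked throughout by H3K27ac in MO, ICM and TE, was covered at 93.0% and 86.0% in 8C, 0% and 5.00% in 8A, 94.0% and 93.0% in MO, 100% and 96.0% in ICM, and 95.0% and 94.0% in TE. H3K4me3 there went with it: 0% and 0% in 4C, 87.0% and 71.0% in 8C, 0% and 0% in 8A, and 98.0% and 100% in MO. Neither H3K27me3 nor H3K9me3 covered it in any library. The run chr3:32440001-32443000 (3 kb), the longest with H3K4me3 in both 8C and no 8A list, had H3K4me3 over 91.7% and 93.3% in 8C and 11.7% and 0% in 8A. It had H3K27me3 over 86.7% and 100% in GV and H3K9me3 over 100% and 100% in MO, BL and ICM, with none in TE.

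The longest runs of the lineage classes were as follows. The ICM-alone run chr16:60017001-60023000 (6 kb) had H3K27ac over 90.8% and 95.0% in MO, 94.2% and 95.8% in ICM and 0% and 0% in TE. ATAC-seq covered 60.0%, 73.3% and 59.2% of it in ICM and none in TE, and no H3K4me3 was called there outside MO. The TE-alone run chr1:130666001-130669000 (3 kb) had H3K27ac over 78.3% and 81.7% in TE and 0% and 0% in ICM, where H3K27me3 covered 46.7% and 100%. Its ATAC-seq coverage was 36.7%, 35.0% and 48.3% in TE and 0%, 0% and 13.3% in ICM. The run chr6:47580001-47588000 (8 kb) was a morula site, with H3K27ac over 96.9% and 95.6% in MO and 6.88% and 11.2% in ICM. H3K4me3 covered 63.8% and 90.0% of it in MO, and H3K9me3 covered 75% and 97.5% in MO, 92.5% and 97.5% in BL and 100% and 100% in ICM, with none in TE.

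At some runs the repressive calls of 4C were missing at 8C, and at others they stood beside the acetylation. At chr18:50050001-50056000 (6 kb) H3K27me3 covered 100% and 100% in 4C, 0% and 0% in 8C, and 0% and 73.3% in 8A, while H3K27ac in ICM was 91.7% and 87.5%. At chr18:55148001-55154000 (6 kb) H3K27me3 was 100% and 100% in 4C, 0% and 0% in 8C and 100% and 100% in 8A, and H3K9me3 was 100% and 100% in 4C and 40.0% and 100% in 8C. Neither repressive mark covered these 2 runs in MO, BL, ICM or TE. At chr5:116837001-116847000 (10 kb) the repressive calls overlapped the acetylation: H3K27me3 covered 80.0% and 100% and H3K9me3 82.0% and 82.0% in 8C, where H3K27ac covered 88.5% and 79.0%, and both were absent in MO, where H3K27ac was 47.5% and 71.0%. The lists come from pools of cells, so it cannot be told whether the marks lay on the same chromosomes.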

How the data were processed

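The members, the sets compared with them and the tests were chosen with earlier results of these data known. The 81 deposited lists hold 1 library each, as intervals with a score per peak of a meaning that no source states; it was used only to describe peaks and to trim lists. Per the submitters' processing notes, reads were trimmed with Trim Galore 0.4.0 and cutadapt 1.8.3, aligned to ARS-UCD1.2 with BWA 0.7.9a and handled with Picard 2.26.10 and SAMtools 1.9. SICER is named there as a tool, while the lists are named for epic2, a related caller, so the caller is not settled. Both join nearby windows into broad domains, and peak edges lie on a grid of 50 bp for ATAC-seq, H3K4me3 and H3K27ac and of 200 bp for H3K27me3 and H3K9me3, so 1 kb bins are coarse for the latter. No read counts were used, depth is unknown, and the number of libraries limits the precision.

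Coverage of each bin and the exact permutation tests were computed in Python 3.11.15 with NumPy 2.4.6 and numba 0.67.0, and were tested on simulated data. Stage tests compared the between-group sum of squares of the share of members marked over all arrangements of the libraries; 8A was left out, and for H3K27ac also the other groups that selected the members. Differences from amanitin-resistant gains were tested by flipping signs over libraries. Adjusted p-values are Benjamini-Hochberg values over 5, 5 and 3 tests, with a threshold of 0.05. The alternatives were 75% or any coverage, bins starting at 500, a rule with no covered base in GV, 4C or 8A, lists trimmed by score to the shortest of their assay, the log2 ratio to all bins, the replicate number as a block, and each library left out. The X chromosome and unplaced sequences were left out of the members. Named runs were the 10 longest and the longest of each of 9 classes.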

Additional observations from a re-analysis of the deposited data

Results flagged for a closer look

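For several marks the members differed from a comparison set in one direction in both libraries of one group and in the other direction in both libraries of another group. These contrasts between groups were not tested, and each value below is a mean over 2 libraries in percentage points. Against amanitin-resistant gains, members carried more H3K9me3 in MO, by 1.25, and less in TE, by -6.40. Against all autosomal bins, H3K4me3 on members stood at +6.74 in MO and at -0.816 in GV. H3K27ac stood at +21.3 in MO and at -0.582 in 2C. H3K27me3 stood at +1.52 in GV and at -4.09 in BL, and H3K9me3 at +1.75 in MO and at -3.43 in 8C. The share of all bins marked differs between groups and libraries, and for the groups named here it is given in the text above.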

How the results depend on the processing

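The mean differences from amanitin-resistant gains and the joint sums kept their sign under every alternative. Stage tests and shares were not read for direction. With 75% coverage there were 13344 members, with H3K4me3 at 12.5% in 8C and 2.38% in 8A, H3K9me3 at 3.99% in 4C, and H3K27ac at 23.6% in MO and 15.6% in ICM. With any covered base, H3K9me3 in 4C was 3.79% and H3K27ac was 30.8%, 15.7% and 7.83% in MO, ICM and TE; the ATAC-seq stage difference (p = 0.0179, exact permutation) and the ICM against TE sum of 1.48 then passed. With bins starting at 500, H3K9me3 in 4C was 3.79%. With no covered base in GV, 4C or 8A there were 12155 members, with H3K4me3 at 4.11% in 8C and 0.823% in 8A, H3K27me3 at 4.15% and H3K9me3 at 4.01% in 4C, and H3K27ac at 13.4% in ICM and 5.52% in TE; the ICM against TE sum of 1.799 passed. With lists trimmed by score there were 11159 members, with H3K4me3 at 4.86% in 8A, H3K27me3 at 2.58% and H3K9me3 at 1.70% in 4C, and H3K27ac at 19.7%, 14.4% and 10.2% in MO, ICM and TE; ATAC-seq (p = 0.0464, exact permutation) and the ICM against TE sum of 0.890 passed. As a log2 ratio to all bins, ATAC-seq (p = 0.00357, exact permutation) and the sum of 1.05 passed. The causes were not tested, beyond the fewer or more bins that each rule admits.

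With the replicate number as a block, the stage differences gave exact permutation p-values of 0.000422 for H3K27me3, 0.00446 for H3K4me3, 0.0107 for H3K9me3, 0.00833 for H3K27ac and 0.250 for ATAC-seq, with no call changed. The numbers do not pair the libraries: over bins, the correlation of same-numbered deviations between groups was over 0.1 in 1 of the 36 pairs of H3K4me3 and in none of the other assays' pairs.

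With each library left out in turn, the members numbered 20738 to 38475, with 37645 and 38475 without 8C replicate 1 and 2 of H3K27ac, since 1 list then decides. H3K4me3 covered 6.55% to 10.4% in 8C and 1.505% to 2.61% in 8A, H3K27me3 3.47% to 4.24% and H3K9me3 3.43% to 4.32% in 4C, and H3K27ac 20.1% to 27.1% in MO, 11.9% to 16.0% in ICM and 5.28% to 7.13% in TE. Stage p-values (exact permutation) ran from 0.000647 to 0.0945 for H3K4me3 and from 0.00284 to 0.0419 for H3K9me3, and calls were lost as given above. They ran from 0.00106 to 0.00317 for H3K27ac, 2.81e-05 to 8.29e-05 for H3K27me3 and 0.129 to 0.493 for ATAC-seq, with no call changed. The ICM against TE sum ran from 1.30 to 1.56, the 8C against 8A sum from 3.11 to 3.84 and the 8C against 4C sum from 1.71 to 2.39. The differences from amanitin-resistant gains passed in all 5 assays under each alternative run and each library left out, with adjusted p up to 0.0466 (exact permutation, H3K9me3, no covered base in GV, 4C or 8A). Unknown depth limits every absent call.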

Other observations

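On the X chromosome, which lies outside the members, 324 of 138989 bins met the same rule, or 0.233%, against 0.820% of autosomal bins; the sex of the pooled embryos is not given in the sources used here.

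H3K9me3 around members differed in shape between stages. Averaged over run centres, it covered 6.53% of the central bin in MO against 3.76% and 3.82% of the bins 20 kb to either side, and 5.59% in ICM against 2.94% and 3.07%. In 4C the central bin was covered at 3.25%, below the 4.41% and 4.59% at 20 kb. H3K27me3 in GV covered 10.8% in the centre against 8.03% and 8.58% at 20 kb, and in 8C 1.86% against 2.92% and 3.01%. These are descriptions without a test.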
